A study of Mus musculus with 2 samples.

Results

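Cycling NPCs of the liver are described here, that is, cells of any lineage that carried transcripts of the mitotic program at the moment of capture. They were chosen by their counts of 8 genes, *Mki67*, *Cdk1*, *Birc5*, *Ccnb2*, *Ccna2*, *Hmmr*, *Kif11* and *Nusap1*, and a cell was kept as cycling when it held at least 5 unique molecular identifiers (UMIs, each standing for 1 captured transcript) of these genes together. In the control library 82 of 4209 kept cells met this limit, 1.95% (exact binomial 95% interval 1.55 to 2.41). In the NASH library 58 of 3710 did, 1.56% (1.19 to 2.02), so that 140 of 7919 cells were cycling over both. The intervals of the 2 libraries overlap.

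The NPC fraction was taken from male C57BL/6 mice that ate either a standard control diet or an MCD (methionine-choline deficient) diet, which brings about NASH, for 6 weeks from an age of 8 weeks. Each diet was represented by the pooled cells of 3 mice and by 1 BD Rhapsody library, a format in which single cells are lysed in microwells and their transcripts are tagged with a cell label and a UMI. The labels name no transgene or deletion in either group, and the MCD diet models steatohepatitis without obesity. As each diet has a single library, the diets could not be tested against each other, and the intervals given are exact and cover counting error only, not the spread between mice. Beside a share of 0 stands the share that 3 counts would give.

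A dividing cell passes from G1 into S phase, when E2F factors switch on the genes of DNA synthesis, and then through G2 into mitosis, when the MuvB complex with B-MYB and FOXM1 switches on cyclin B, mitotic kinases and the spindle and kinetochore genes. Most cells of the adult liver rest outside this cycle. Kupffer cells, the resident macrophages, renew themselves by division in place, dendritic cells derive from precursors that still divide after leaving the marrow, activated lymphocytes and plasmablasts expand by division, and sinusoidal endothelial cells (LSECs) divide rarely unless the liver is injured.

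The tables held 4336 control cells with 11452972 UMIs and 3893 NASH cells with 9326723 UMIs over the 16383 genes analysed, which run alphabetically to *Rad54l2*. The cycle genes *Rrm2*, *Top2a*, *Tpx2*, *Ube2c*, *Stmn1*, *Tk1* and *Tyms* were therefore not analysed here. The columns of the NASH table had no names and took those of the control table in order. Across genes, the logged column totals correlated between the libraries at 0.973 in this order and at 0.471 after a shift by 1 column. The libraries shared 21 cell label numbers. Kept cells had at least 500 UMIs and 200 genes, and medians of 1683 (control) and 1654 UMIs (NASH).

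More UMIs were captured from cycling cells than from cells without any UMI of the 8 genes. Cells with 1 to 4 UMIs of these genes lay between, at medians of 4136 (control) and 3058 UMIs (NASH). Their median was 6673 UMIs in the control library (range 649 to 21254) and 5015.5 in the NASH library (1331 to 18460), against 1612 and 1574 UMIs in cells without any UMI of the 8 genes. The cycling cells made up 5.01% of the UMIs of the kept control cells and 3.82% of those of the NASH cells. A limit on summed UMIs is met more easily by a deep cell, and to what extent depth placed cells above it was only examined by thinning, given with the shares below.

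The sum of the 8 genes chose the cells and is described without a test. Its median was 19.5 UMIs per cycling cell (control) and 20 (NASH), and its highest values were 129 and 151. Per 10000 UMIs of the cell the medians were 44.0 and 53.8. Just inside the limit, at 5 UMIs, lay 10 control cells and 1 NASH cell, and just outside it, at 4 UMIs, lay 12 and 5 cells. More cells thus lay at the limit in the control library, where 5 of the 10 cells at 5 UMIs were plasma cell-like.

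Of the 346 control and 311 NASH cells with 1 to 4 UMIs, 313 and 288 held UMIs of a single one of the 8 genes, and 250 and 248 of them held 1 UMI, which allows no more than 1 gene. Cycling cells held UMIs of a median of 6 of the 8 genes (control) and 7 (NASH), and 50 and 41 of them held 5 or more genes. Only 6 cycling cells, all in the control library, rested on 1 gene.

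*Mki67*, which encodes the chromosome surfactant Ki-67 and lies on the minus strand of GRCm38 at chr7:135689784-135716361, gave 936 UMIs in the cycling control cells and 625 in the cycling NASH cells. These were 79.9% and 87.8% of all its UMIs in the kept cells, found in 81 of 82 and 55 of 58 cycling cells. *Cdk1*, the kinase of entry into mitosis (chr10:69335146-69352938, minus strand), gave 205 and 275 UMIs. Its level was 359 CPM (311 to 411) in the control and 779 CPM (689 to 876) in the NASH cells, where CPM stands for counts (UMIs) scaled to a common total over the genes analysed. The control and NASH intervals of *Mki67*, 1638 CPM (1535 to 1747) and 1769 CPM (1633 to 1914), overlap, while those of *Cdk1* do not. As *Mki67* and *Cdk1* helped to choose the cells, these levels are a description and no difference between the diets is read from them.

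The remaining 6 genes all stood at a higher level in the cycling NASH cells. *Birc5*, the survivin subunit of the chromosomal passenger complex (chr11:117849251-117855743, plus strand), was at 558 and 875 CPM, found in 62 and 51 cells. *Ccnb2*, a B-type cyclin (chr9:70407692-70421547, minus strand), was at 275 and 467 CPM, and *Ccna2*, the cyclin of S and G2 phase (chr3:36564865-36572150, minus strand), at 404 and 694 CPM. *Hmmr*, a spindle-associated hyaluronan receptor gene (chr11:40701395-40733422, minus strand), was at 212 and 334 CPM. *Kif11*, the kinesin that separates spindle poles (chr19:37376403-37421859, plus strand), was at 245 and 340 CPM, and *Nusap1*, a spindle microtubule binding gene (chr2:119618298-119651244, plus strand), at 327 and 450 CPM. The intervals of the libraries overlap for *Kif11* and not for the other 5. All 6 genes helped to choose the cells, and the intervals cover counting error only. The levels are thus a description, and no difference between the diets is read from them. Lineage makeup differed between the 2 sets of cycling cells, as described below, and its part in these levels was not tested. Of these 6 genes, only *Ccnb2*, *Hmmr* and *Nusap1* are given by lineage below, each for some classes.

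Promoters of the 8 genes were looked up because the genes are known to be transcribed together late in the cycle. RefSeq sequences of GRCm38.p6 from 250 bases before to 50 bases after the start were found for 7 of the 8, all but *Ccna2*. The cell cycle genes homology region (CHR) motif TTTGAA, which MuvB complexes bind, was searched on both strands and stood in 5 of these 7 windows (71.4%), against 18.1% of all 27025 promoters. The CCAAT motif, bound by NF-Y and also searched on both strands, stood in the same share of the 7 windows and in 37.9% of all promoters. *Birc5* and *Nusap1* held neither. The other 4 had a CHR nearer to the start than *Mki67*, and the last 150 bases of their windows are shown 5′ to 3′ in the direction of transcription, with CHR (TTTGAA or TTCAAA) and CCAAT (or ATTGG) matches in capitals.
Cdk1 promoter, chr10:69352863-69353012, minus strand: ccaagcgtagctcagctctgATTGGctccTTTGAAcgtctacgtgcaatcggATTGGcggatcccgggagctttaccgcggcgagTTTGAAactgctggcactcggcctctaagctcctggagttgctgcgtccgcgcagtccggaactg
Ccnb2 promoter, chr9:70421505-70421654, minus strand: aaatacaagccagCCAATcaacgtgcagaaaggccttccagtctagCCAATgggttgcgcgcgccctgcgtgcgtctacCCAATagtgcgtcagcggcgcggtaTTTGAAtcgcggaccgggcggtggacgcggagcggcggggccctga
Hmmr promoter, chr11:40733388-40733537, minus strand: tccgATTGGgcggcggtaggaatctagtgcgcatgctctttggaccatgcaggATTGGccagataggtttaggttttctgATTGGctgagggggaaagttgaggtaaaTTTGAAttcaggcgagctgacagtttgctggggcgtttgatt
Kif11 promoter, chr19:37376282-37376431, plus strand: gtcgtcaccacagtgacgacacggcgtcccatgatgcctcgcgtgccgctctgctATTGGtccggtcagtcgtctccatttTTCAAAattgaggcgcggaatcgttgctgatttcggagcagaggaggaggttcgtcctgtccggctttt
The CHR of *Ccnb2* began 5 bases after the start and that of *Hmmr* 9 bases after it. These are matches of letters in a window and not mapped binding sites.

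Lineages were first read from *Clec4f* (Kupffer cells), *Lyz2* (monocytes and macrophages), *Kdr* (endothelial cells), *Cd3e* (T cells), *Cd79a* (B cells) and *Jchain* (plasma cells). A single UMI of these genes did not tell lineages apart. *Kdr* had a UMI in 47.6% of cycling and 46.4% of other control cells, and *Clec4f* in 40.2% and 20.1%, at median depths of 6673 and 1612 UMIs, although Kupffer cells were a minority of both. Free RNA can give such background, but its part was not tested. Each gene therefore had to exceed a level per 10000 UMIs set after the data were seen.

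At these levels *Cd3e* marked 25 of the 82 cycling control cells (30.5%) and 9 of the 58 cycling NASH cells (15.5%). *Clec4f* marked 14 and 9 (17.1% and 15.5%), *Jchain* 14 and 0, *Cd79a* 6 and 1, *Lyz2* 5 and 1, and *Kdr* 5 and 12 (6.10% and 20.7%). None of the 6 genes marked 13 control and 26 NASH cells (15.9% and 44.8%). Of these 39 unmarked cells, 27 were dendritic cell-like by longer marker lists, a lineage for which the 6 genes have no marker. Of the 6 *Lyz2* cells, these lists placed 3 as neutrophil-like, 2 as monocyte or macrophage-like and 1 as dendritic cell-like. The 1 *Lyz2* cell of the NASH library was neutrophil-like, so *Lyz2* did not stand for monocytes and macrophages alone.

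Of all kept cells that *Jchain* marked in the control library, 14 of 109 (12.8%) were cycling, and of the 6 in the NASH library 0 were. The corresponding shares were 25 of 491 (5.09%) and 9 of 323 (2.79%) for *Cd3e*, 14 of 489 (2.86%) and 9 of 453 (1.99%) for *Clec4f*, and 5 of 1402 (0.357%) and 12 of 1743 (0.688%) for *Kdr*. Among *Lyz2* cells 5 of 330 (1.52%) and 1 of 419 (0.239%) cycled, and among *Cd79a* cells 6 of 597 (1.01%) and 1 of 194 (0.515%). In the control library the cells marked by each of the other 5 genes held a larger cycling share than the *Kdr* cells at this limit. The *Lyz2* (0.494 to 3.50) and *Cd79a* (0.370 to 2.17) intervals overlap that of *Kdr* (0.116 to 0.830). *Clec4f* cells without UMIs of the 8 genes were deeper than such *Kdr* cells, at medians of 5484.5 and 1747 UMIs. With cells thinned to 1000 UMIs the *Clec4f* and *Lyz2* shares of the control fell to 0.216% and 0, so no order apart from depth is read.

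Since the 6 genes hold no marker of dendritic or NK cells, every kept cell was also placed in a class by 15 lists of marker genes, none of which holds any of the 8 genes. The class names stand for these marker lists. The markers made the classes, so their levels describe how far the classes stand apart. In the cycling Kupffer cell-like cells the listed markers summed to a median of 207 and 186 UMIs per 10000 in the control and NASH library, against 1.72 and 3.10 in cycling cells of other classes. For endothelial cell-like cells the medians were 310 and 219, against 8.04 and 14.4. Other classes overlapped: control T cell-like cells ranged from 10.1 upward and cells of other classes reached 166, and control dendritic cell-like cells ranged from 4.05 upward and others reached 32.7. Markers of more than 1 lineage stood in 3 of 82 and 2 of 58 cycling cells (3.66% and 3.45%), against 2.95% and 3.58% of all kept cells. No doublets were removed.

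Dendritic cell-like cells had the largest cycling share of the classes with over 10 cells in both libraries. In the control library 11 of 154 were cycling, 7.14% (3.62 to 12.4), and in the NASH library 19 of 144, 13.2% (8.13 to 19.8). Plasma cell-like cells were cycling in 12 of 97 cases in the control, 12.4% (6.56 to 20.6), and in 0 of 6 in the NASH library, for which 3 counts of the total would be 50%. For NK cell-like cells the counts were 9 of 134, 6.72% (3.12 to 12.4), and 2 of 61, 3.28% (0.400 to 11.3). The dendritic, NK and plasma cell-like intervals of the 2 libraries overlap within each class.

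T cell-like cells were cycling in 19 of 538 control cases, 3.53% (2.14 to 5.46), and 9 of 345 NASH cases, 2.61% (1.20 to 4.89). Kupffer cell-like cells gave 14 of 500, 2.80% (1.54 to 4.65), and 8 of 472, 1.69% (0.735 to 3.31). B cell-like cells gave 7 of 624, 1.12%, and 1 of 194, 0.515%. Monocyte or macrophage-like cells gave 3 of 168, 1.79%, and 0 of 364, for which 3 counts of the total would be 0.824%. For these 4 classes the NASH value was the lower one, within overlapping intervals in each class. Those of the monocyte or macrophage-like cells were 0.370 to 5.13 and 0 to 1.01.

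Endothelial cell-like cells were the most numerous class and had one of the smaller cycling shares. In the control library 5 of 1451 were cycling, 0.345% (0.112 to 0.802), and in the NASH library 16 of 1957, 0.818% (0.468 to 1.32), with overlapping intervals. Of all cycling cells they made up 6.10% (control) and 27.6% (NASH), while dendritic cell-like cells went from 13.4% to 32.8% and plasma cell-like cells from 14.6% to 0. Neutrophil-like cells gave 2 of 446 and 2 of 91, cholangiocyte-like cells 0 of 41 and 1 of 34, and hepatic stellate cell-like cells 0 of 24 and 0 of 14.

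**Figure D1:**
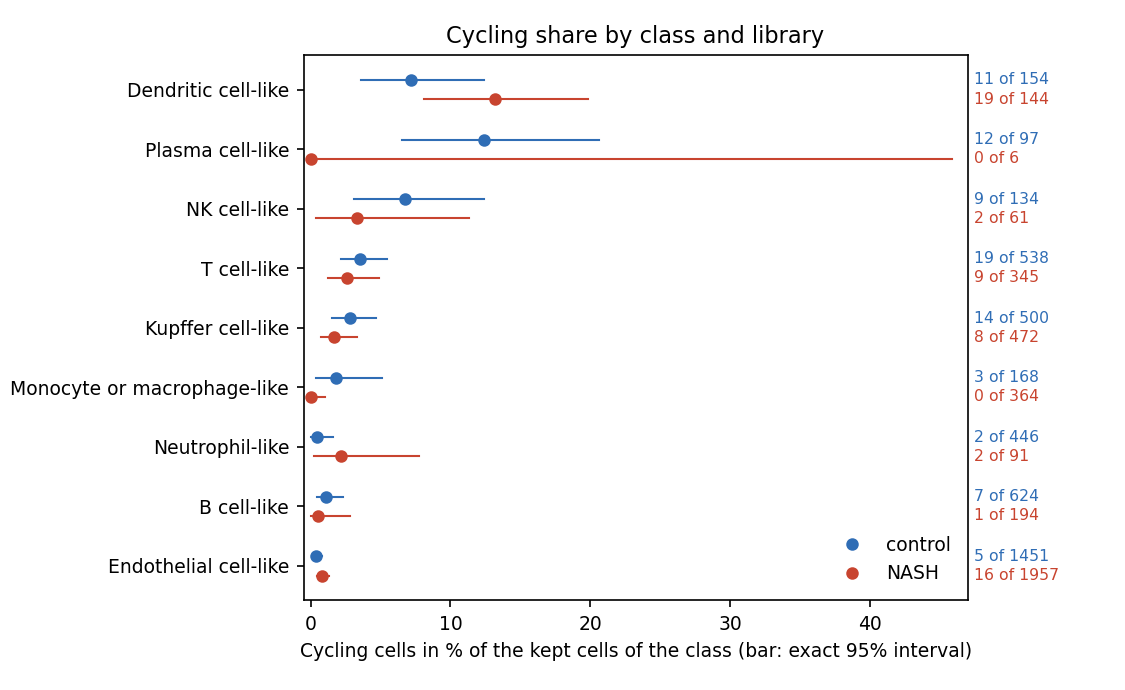
Share of cycling cells among the kept cells of each class in percent (control in blue, NASH in red), with exact binomial 95% intervals for counting error and the counts at the right. Dendritic cell-like cells lie at 7.14% and 13.2% and endothelial cell-like cells at 0.345% and 0.818%, with intervals of the 2 libraries that overlap in each class.

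Depth and the limit moved these shares. With each cell thinned to 1000 UMIs and the same limit of 5 UMIs, the dendritic cell-like shares were 3.38% (5 of 148) and 7.04% (10 of 142), the endothelial shares 0.348% (4 of 1150) and 0.786% (11 of 1400), and the T cell-like shares 1.93% and 2.33%. Kupffer cell-like cells fell to 0.214% (1 of 468) and 0.456% (2 of 439). NK cell-like cells were at 7.48% (8 of 107) and 3.92% (2 of 51). In the control they thus stood above the dendritic cell-like cells, with overlapping intervals (3.28 to 14.2 and 1.11 to 7.71). A limit of 2 UMIs at this depth gave 6.76% and 12% of dendritic, 0.435% and 1.86% of endothelial, and 1.28% and 1.59% of Kupffer cell-like cells. For NK cell-like cells it gave 9.35% and 3.92%. The Kupffer cell-like counts at these settings are too few to order the libraries.

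*Pclaf*, the gene of a PCNA-associated factor of DNA synthesis (chr9:65890237-65903266, plus strand), was not used to choose the cells and gave a second view. At least 3 *Pclaf* UMIs were held by 11 control and 14 NASH dendritic cell-like cells (7.14% and 9.72%), 15 and 9 T cell-like cells (2.79% and 2.61%), 7 and 4 Kupffer cell-like cells (1.40% and 0.847%), and 1 and 4 endothelial cell-like cells (0.0689% and 0.204%). Plasma cell-like cells gave 7 of 97 (7.22%) in the control. The dendritic cells again stood above the Kupffer and endothelial cells in both libraries. Of all kept cells with at least 3 *Pclaf* UMIs, 50 of 57 (control) and 30 of 32 (NASH) were cycling cells. The view is thus of largely the same cells, and its limit was not adjusted for depth either.

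Per cell, the 8 genes were at unlike levels in the classes. Their median in cycling cells was 17.8 (control) and 36.2 (NASH) UMIs per 10000 in Kupffer cell-like cells, 39.0 and 48.5 in dendritic, 46.8 and 54.0 in T cell-like, and 73.3 and 95.8 in endothelial cell-like cells. Plasma cell-like cells of the control were at 31.0. These values chose the cells, and the limit of 5 UMIs is a higher level in a shallow cell: the cycling endothelial cell-like cells had medians of 2693 and 3185 UMIs and the Kupffer cell-like cells 8947.5 and 9391.5. No order is read from them.

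**Figure D2:**
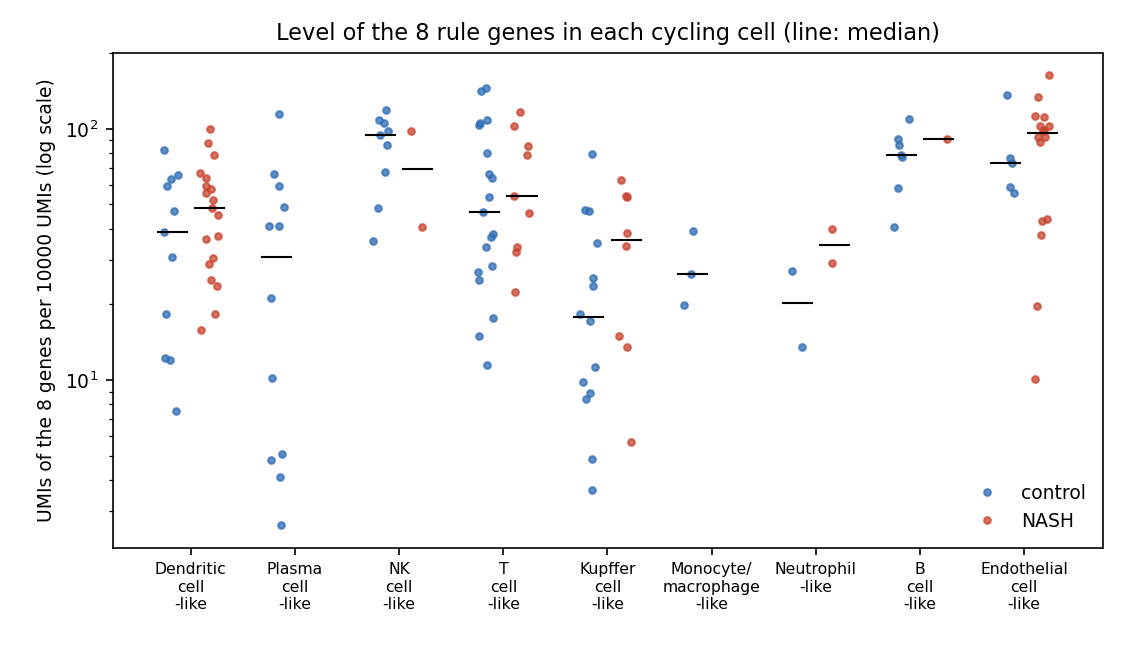
UMIs of the 8 genes per 10000 UMIs in each cycling cell, on a log axis, by class and library (blue control, red NASH), with a line at the median. Kupffer cell-like cells lie lowest among the larger classes in the control, at a median of 17.8, and NASH endothelial cell-like cells at 95.8. The 1 cholangiocyte-like cell is not drawn.

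To find what else set cycling cells apart, each gene's UMIs in the cycling cells were compared with those expected from cells of the same library and the same class or subgroup that held none of the 8 genes. Log2 ratios were formed with 0.5 UMI added to each sum. Of 6057 genes measured, 370 (6.11%) stood at a log2 ratio of 1 or more in both libraries and are called higher, and 144 (2.38%) at -1 or less in both and are called lower. Against deep other cells, those with at least the median UMIs of all cycling cells of the library, 117 genes were lower, 48 of them among the 144. In this setting, which had no upper limit of depth and did not match depth within a class, 429 were higher, of which 310 were shared. This setting also left out cycling cells without such a counterpart and used 69 control and 50 NASH cycling cells. Because the cells were chosen on genes of the same program, high cycle genes follow from the choice and are given as a description. Over 240 genes of the cell cycle lists, the 8 genes left out, 182 were higher and 1 was lower, with a median log2 ratio of 2.56 (control) and 2.78 (NASH), against -0.01 and -0.02 over all measured genes.

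*Pclaf* and the mitotic kinetochore gene *Cenpf* (chr1:189640606-189688086, minus strand) were not among the 8 genes and stood far above the other cells. *Pclaf* gave 741 of its 837 control UMIs (88.5%) and 344 of its 369 NASH UMIs (93.2%) in the cycling cells, at 1297 CPM against 9 expected and at 974 against 1.33, log2 ratios of 7.04 and 8.47. It was found in 59 of 82 and 47 of 58 cycling cells. *Cenpf* was at 294 CPM against 2.14 expected and at 776 against 1.57, log2 ratios of 6.61 and 8.02. Its level was thus higher in the cycling NASH cells, while that of *Pclaf* was higher in the control.

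Genes of mitosis were the most uniformly high. Of 28 kinesin, spindle and cytokinesis genes 27 were higher, with medians of 4.88 and 5.51. *Ckap2l*, a spindle pole gene, was at 249 CPM against 0.584 expected in the control and at 388 against 0.361 in the NASH library, and the microcephaly gene *Aspm* had log2 ratios of 6.20 and 7.11. *Numa1*, which works in resting nuclei too, was the exception at -0.16 and 0.26. All 11 genes of the chromosomal passenger complex and mitotic kinases were higher, with medians of 5.23 and 6.00. *Plk1*, the Polo kinase, was at 135 CPM against 4.17 and at 215 against 0.299.

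Kinetochore and spindle checkpoint genes were higher in 29 of 30 cases, with medians of 4.14 and 4.46. The motor gene *Cenpe* was at 438 CPM against 4.25 expected in the control and at 781 against 4.59 in the NASH library, and the checkpoint kinase gene *Bub1* had log2 ratios of 6.48 and 6.76. *Mad1l1*, at 1.27 and 0.64, did not reach 1 in the NASH library. Condensin and cohesin genes were higher in 9 of 13 cases. The cohesin acetyltransferase gene *Esco2* (6.78 and 6.59) and the condensin gene *Ncapg* (5.08 and 6.30) led them, whereas the cohesin loader *Nipbl* was at -0.49 and -0.63 and the securin gene *Pttg1* at 0.09 and -0.17.

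Among 17 genes of the anaphase promoting complex and its partners 5 were higher. *Cdc20*, its mitotic activator, was at 191 CPM against 2.53 expected and at 204 against 1.95, and its inhibitor gene *Fbxo5* had log2 ratios of 3.14 and 4.39. The 5 include the core subunit genes *Anapc5* (1.33 and 1.20) and *Cdc23* (1.01 and 1.07), while the core subunit *Anapc10* was at -0.33 and -0.35.

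Of 38 genes of replication licensing and DNA synthesis 31 were higher and 0 lower, with medians of 2.31 in both libraries. The checkpoint adaptor *Clspn* (5.93 and 4.82) and the initiation factor *Mcm10* (4.82 and 5.72) had the highest ratios named. *Lig1*, which joins Okazaki fragments, was at 558 CPM against 44.5 expected and at 439 against 41.3. Of the 5 origin recognition genes measured, *Orc6* was higher (1.82 and 1.66) and the others were not, with *Orc5* at 0.10 and -0.03. Nucleotide synthesis genes were higher in only 5 of 21 cases, among them *Dut*, which removes dUTP, at 247 CPM against 32.5 and at 210 against 31.2.

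Chromatin genes of S phase were higher in 24 of 28 cases. *Hmgb2*, a chromatin protein gene of dividing cells, was at 4274 CPM against 469 expected in the control and at 4686 against 327 in the NASH library, and was found in 78 of 82 and 55 of 58 cycling cells. The lamin gene *Lmnb1* had log2 ratios of 3.10 and 3.60 and the linker histone gene *Hist1h1c* ones of -0.63 and -0.66. DNA repair genes were higher in 20 of 23 cases, with medians of 2.82 and 3.23.

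The regulators split. Of 15 E2F, MYB and FOXM1 genes 10 were higher. *Foxm1* was at 63.0 CPM against 0.880 expected and at 133 against 0.726, *Mybl2*, the gene of B-MYB, had log2 ratios of 5.03 and 4.43, and *E2f1* was at 124 CPM against 24.6 and at 87.8 against 20. *Myc* was at -0.60 and 0.38. Of 19 cyclin and cyclin-dependent kinase genes 14 were higher, with *Ccnb1*, cyclin B1, at 144 CPM against 0.913 and at 227 against 0.0529. *Ccnd2*, a D-type cyclin of G1, was the 1 lower gene of all cycle lists, at 338 CPM against 740 expected and at 261 against 767. Its log2 ratios were -1.13 and -1.55, and those of *Ccnd1* were -0.35 and -0.74. Against deep other cells *Ccnd2* was at -0.90 and -0.97.

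Inhibitors of the cycle and quiescence genes did not mirror the cyclins. Of 17 measured, 2 were higher and 0 lower, with medians of -0.40 and -0.25. The higher ones were *Cdkn2c*, the gene of p18, at 99.8 CPM against 14.1 expected and at 258 against 18.4, and *Cdkn2a*, at 28.0 against 3.16 and at 34.0 against 6.98. The antiproliferative gene *Btg2* was at -1.40 and -0.70 and *Cdkn1a*, the gene of p21, at 0.45 and 0.55 over all cycling cells.

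**Figure D3:**
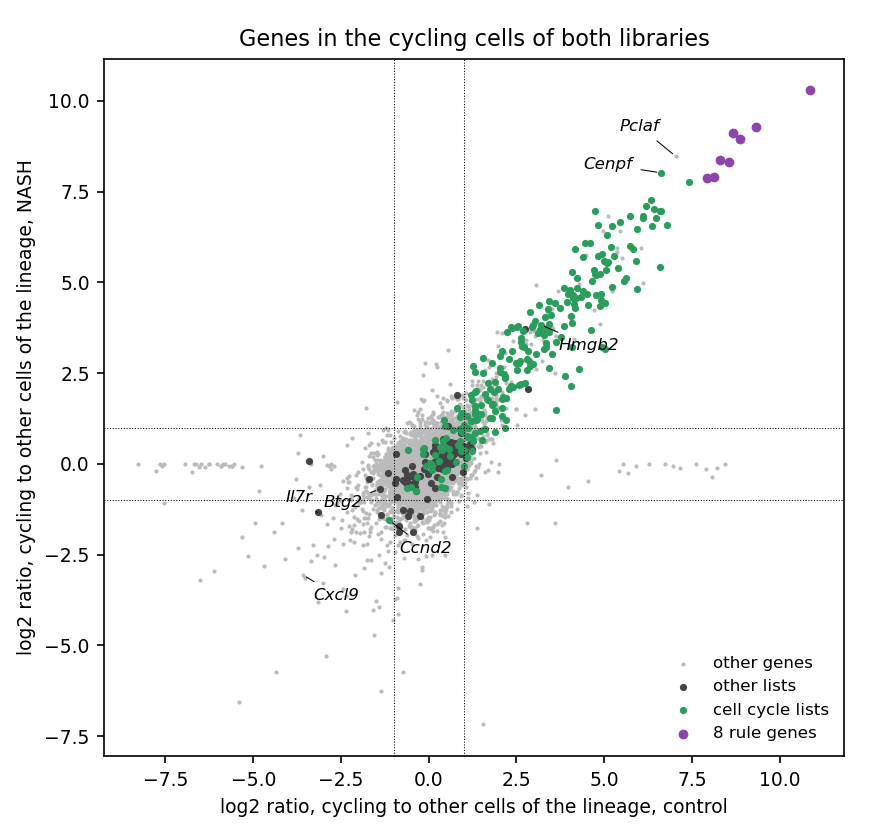
Each point is 1 of the measured genes, with its log2 ratio of cycling cells to other cells of the lineage in the control (x) and NASH (y) library and dotted lines at 1 and -1. The 8 genes of the rule (purple) and cell cycle genes (green) lie toward the upper right, with *Pclaf* at 7.04 and 8.47, and *Cxcl9* and *Il7r* lie at the lower left.

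Outside the cycle lists few groups moved. None of 37 oxidative phosphorylation genes, 12 glycolysis genes, 18 nucleolar genes and 8 genes of MHC class II presentation was higher or lower. Their medians were 0.61 and 0.29, 0.48 and -0.03, 0.44 and 0.34, and -0.53 and -0.44. Over the 110 genes of these lists, the inhibitors and growth factor and cytokine receptors, 2 were higher, 2 were lower, and the medians were 0.39 and 0.07. The 2 lower ones were receptors, the costimulatory *Cd40* at 17.5 CPM against 46.2 expected and at 22.7 against 62.5, and *Il7r*, the interleukin-7 receptor of resting lymphocytes, at 36.8 against 337 and at 70.8 against 181. Against deep other cells, with the 69 and 50 cycling cells that had such a counterpart, *Il7r* was at log2 ratios of -0.04 and 0.62. *Cd40* was at -1.18 and -1.74. The limit for these other cells was 6673 (control) and 5015.5 UMIs (NASH), above the medians of the cycling T cell-like cells, 4226 and 3695. Depth was thus not matched within a class, and its part in the level of *Il7r* was not tested.

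**Figure D4:**
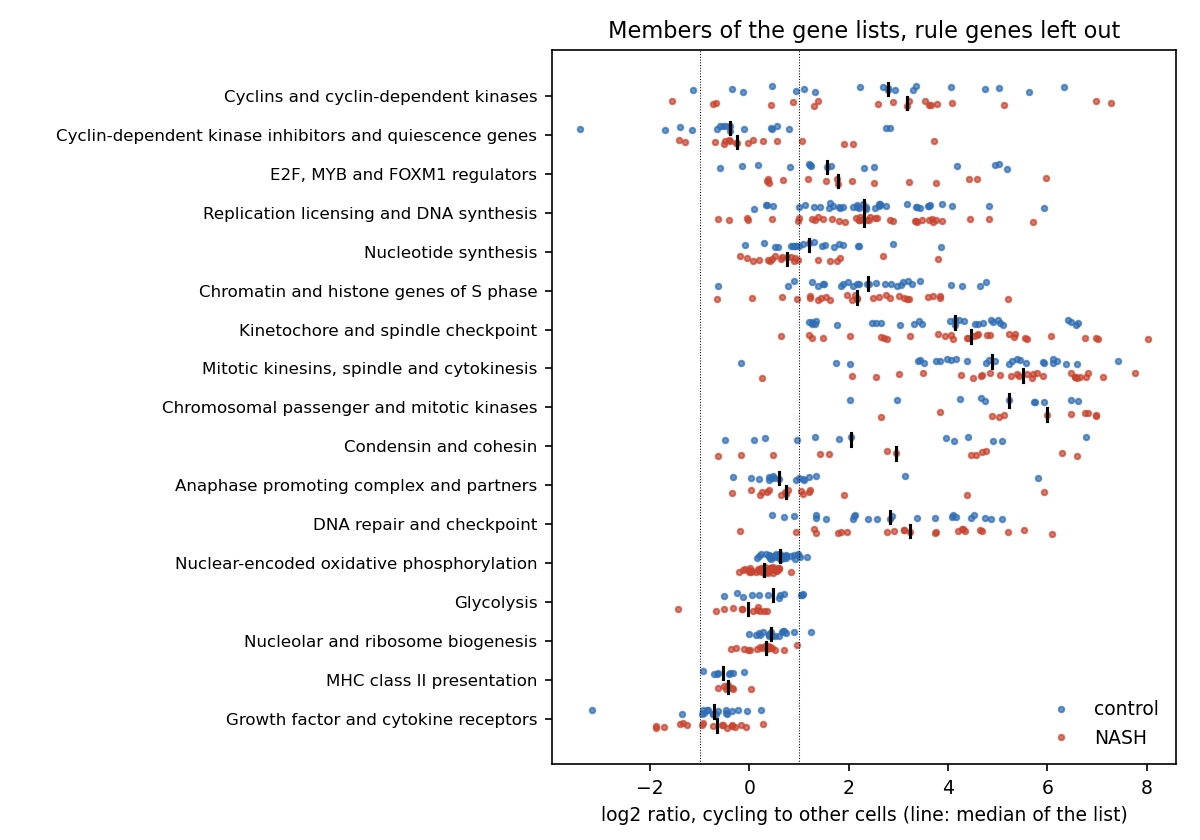
Log2 ratio of cycling cells to other cells of the lineage for each measured member of the fixed lists, the 8 rule genes left out, in the control (blue) and NASH (red) library, with black ticks at the medians and dotted lines at 1 and -1. Mitotic lists have medians above 4, replication genes are at 2.31 in both libraries, and oxidative phosphorylation genes at 0.61 and 0.29.

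A further 178 genes on no list were higher and 141 lower, of 5699 such genes. Several of the higher ones are known from dividing cells, among them the phosphatase gene *Cdkn3* (6.04 and 5.96), the mitotic gene *Cdca3* (5.51 and 5.67), the DNA glycosylase gene *Neil3* (5.38 and 5.85), the MAX-binding repressor gene *Mxd3* (6.09 and 4.98) and the noncoding RNA gene *Lockd* (4.47 and 5.75). Among the lower ones, *Cxcl9*, an interferon-induced chemokine gene, was at 21.0 CPM against 263 expected and at 79.3 against 668. The neutrophil collagenase gene *Mmp8* had 4 and 0 UMIs, the B cell receptor gene *Fcer2a* and the amino acid oxidase gene *Il4i1* none in either library, and the endothelin gene *Edn1* 0 and 2.

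Promoters were counted again over the genes that stood high. The CHR motif TTTGAA stood in 31.5% of the 286 promoters found for higher genes, the 8 genes left out, in 50.5% of the 103 at a log2 ratio of 3 or more, in 12.3% of the 106 of lower genes and in 12.4% of the 4742 of all measured genes. CCAAT gave 60.8%, 68.9%, 38.7% and 39.5%. The E2F motif TTTCCCGC, also on both strands, stood in 9.44%, 6.80%, 0.943% and 2.32%, and in none of the 7 windows of the 8 genes. These shares describe the windows of genes that were chosen by the same cells.

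In cycling Kupffer cell-like cells *Clec4f* was found in all 14 control and all 8 NASH cells, at 6432 CPM against 7681 in the other Kupffer cell-like cells of the control and at 6506 against 7493 in the NASH library. *Cd5l*, a secreted macrophage protein gene, was at 6174 against 7333 and at 5119 against 6818. The MHC class II gene *H2-Ab1* was at 2944 against 6311 CPM, a log2 ratio of -1.10, and at 2586 against 5484, -1.08, and its chaperone *Cd74* at log2 ratios of -1.14 and -0.82. Of these, only *H2-Ab1* lay at -1 or less in both libraries. The genes named within a class were in part chosen after their values had been seen.

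*Ccnd3* was the D-type cyclin gene that rose above the other Kupffer cell-like cells, at 237 against 98.3 CPM (control) and 293 against 107 (NASH), and *Ccnd1* had log2 ratios of 0.61 and 0.03. The monocyte receptor gene *Ccr2* had no UMI in the cycling Kupffer cell-like cells of either library. *Csf1r*, the receptor for the growth factor of macrophages, was at 3411 against 4793 CPM and at 3093 against 4575. *Pclaf* was found in 9 of 14 and 7 of 8 cells, at 942 and 947 CPM.

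Dendritic cell-like cells that cycled were looked at for genes of dendritic subsets. *Flt3*, the receptor of dendritic precursors, had a UMI in 8 of 11 control and 19 of 19 NASH cells. *Clec9a*, a receptor of type 1 conventional dendritic cells, was found in 8 of 11 and 13 of 19, and *Cd209a*, a lectin gene of type 2 cells, in 4 of 11 and 5 of 19. In other control cells of the plasmacytoid subgroup these genes had a UMI in 62.3%, 54.7% and 56.6%, so that detection of them does not tell the subsets apart. The plasmacytoid genes *Ccr9*, *Klk1* and *Cox6a2* had no UMI in any of the 11 control and 19 NASH cells, although 1 control cell had been placed nearest to the plasmacytoid subgroup. Without that subgroup the cycling shares were 10 of 96 (10.4%) and 19 of 117 (16.2%, 10.1 to 24.2).

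*Cxcl9* gave 1 and 3 UMIs in them, 10.9 and 18.4 CPM, against 1380 and 1278 CPM in the other non-plasmacytoid cells. The latter rested on few cells, 14 of 68 and 14 of 74, and in the NASH library 273 of 450 UMIs came from 1 cell. *Cd209a* was at 415 against 798 CPM and at 233 against 920, while *Naaa*, a lysosomal hydrolase gene of type 1 cells, was at 1987 against 2053 and at 1918 against 1329. The migration receptor gene *Ccr7* was found as 10 UMIs in 1 NASH cell. *Cd74* was at 15600 against 22911 CPM and at 17411 against 23692. One control cell of this class carried 102 UMIs of *Prtn3* and 35 of *Mpo*, granule genes of myeloid precursors.

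Endothelial cell-like cells were divided by their markers into a first subgroup, richer in LSEC genes, and a second, richer in *Bmp4* and other genes of vascular endothelium. Cycling cells numbered 3 of 1203 (0.249%) and 4 of 1448 (0.276%) in the first, and 2 of 248 (0.806%) and 12 of 509 (2.36%, 1.22 to 4.08) in the second. The name of the second subgroup went against the data in the cycling cells. *Bmp4*, a growth factor gene, and *Fbln2*, a matrix protein gene, had no UMI in any of the 5 control and 16 NASH cycling cells, against 1190 and 748 CPM in the other cells of the second subgroup of the NASH library.

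The 16 cycling endothelial cells of the NASH library were compared with both subgroups. *Kdr*, which encodes VEGFR-2, stood at 2351 CPM (1990 to 2759) against 5611 in the other cells of the first subgroup and 2578 in those of the second, within its interval. The phosphatase gene *Ptprb* was at 2351 CPM (1990 to 2759) against 8586 and 11661, the lectin gene *Clec4g* at 1536 against 7334 and 2166, and *Ehd3*, an endocytic gene of LSECs, at 2852 against 8323 and 5553. *Ly6a*, a surface antigen gene, was at 235 against 1036 and 2262. Other genes stood at or above the second subgroup, such as *Flt4*, the gene of VEGFR-3, at 893 against 2609 and 868, *Lyve1*, a hyaluronan receptor gene, at 987 against 1674 and 233, *Fcgr2b*, an Fc receptor gene of LSECs, at 3573 against 8542 and 2349. The fatty acid binding gene *Fabp4* was at 4012 against 2449 and 6691.

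*Cdkn1a* was high in the cycling endothelial cells. In the control library 4 of 5 cells held 16 UMIs of it, 1387 CPM against 68.0 expected, a log2 ratio of 4.39 (3.51 to 5.09). In the NASH library 10 of 16 held 54 UMIs, 846 CPM against 76.3, a log2 ratio of 3.48 (3.02 to 3.91). The gene encodes p21, an inhibitor of cyclin-dependent kinases, and its ratio over the cycling cells of all classes was 0.45 and 0.55. *Ccnd2* was lower in these cells, at -2.02 and -1.84. *Pclaf* was found in 1 of 5 and 12 of 16. Whether the ratio of *Cdkn1a* differs between classes was not tested.

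**Figure D5:**
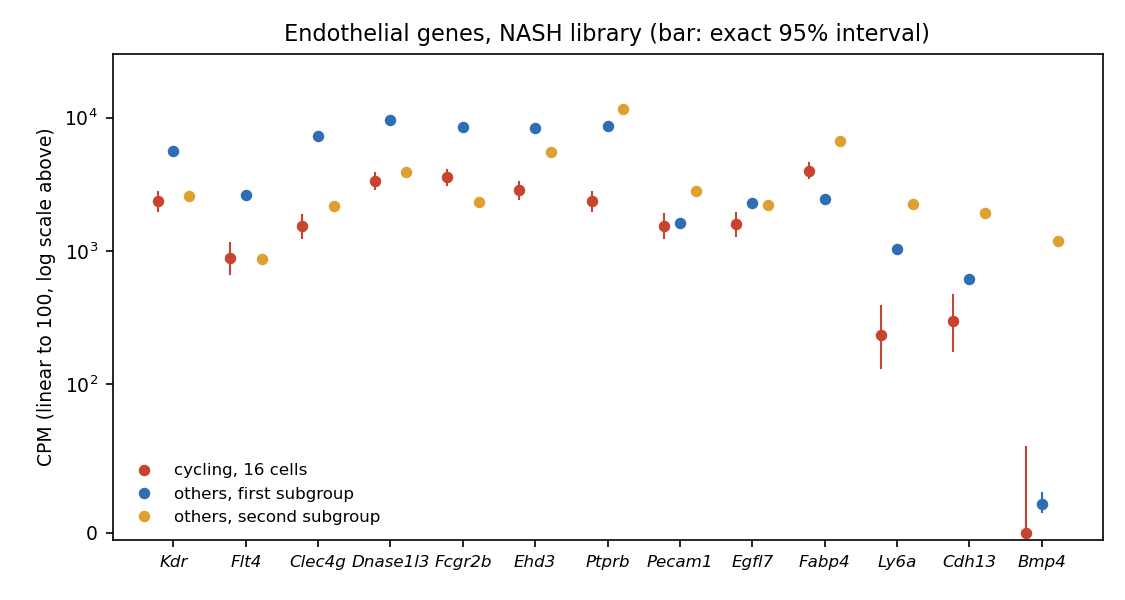
Level of endothelial genes in CPM (linear to 100, log scale above) in the 16 cycling endothelial cell-like cells of the NASH library (red) and in the other cells of the first (blue) and second (yellow) endothelial subgroup, with exact 95% intervals for counting error. *Ptprb* lies at 2351 CPM in the cycling cells against 8586 and 11661, and *Bmp4* at 0 against 1190 in the second subgroup.

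In T cell-like cells in cycle *Il7r* was at 155 against 1616 CPM in the control, a log2 ratio of -3.34, and at 430 against 1467 in the NASH library, -1.72. *Ccnd2* was at 581 against 2164 and 602 against 2776 CPM, and the quiescence gene *Btg1* at 232 against 1322 and 487 against 1240. *Cxcr6*, the chemokine receptor gene of liver-resident T cells, was at 145 against 1256 in the control and at 774 against 1244 in the NASH library, log2 ratios of -3.07 and -0.66. These values were not set against T cell-like cells of similar depth. The joint ratio of *Il7r* over all lineages was near or above 0 against the deep other cells, whose depth was not matched within a class.

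Different T cell genes were detected in the cycling cells of the 2 libraries. *Cd4* was found in 11 of 19 control cells and 1 of 9 NASH cells, and *Cd8a* in 4 of 19 and 3 of 9. By level the CD8 genes were not higher in the NASH cells. *Cd8a* was at 474 (control) and 373 CPM (NASH), a log2 ratio of -0.31 (-1.35 to 0.557). *Cd8b1* was at 842 and 545 CPM, -0.60 (-1.43 to 0.0998). *Foxp3*, the factor of regulatory T cells, gave 36 UMIs in 4 of 19 control cells and none in the 9 NASH cells. *Gzmb*, granzyme B, was at 174 CPM in the control and 1433 in the NASH cells, against 704 and 605 in the other T cell-like cells, and *Ly6c2*, an activation antigen gene of cytotoxic T cells, at 300 and 3583 against 1816 and 1459. With 9 cells on 1 side, few cells set these values.

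NK cell-like cells were mostly of the control library, with 9 cycling cells against 2. *Gzma* was found in all 9, at 10702 against 8874 CPM in the other NK cell-like cells of the control, and *Gzmb* at 5969 against 4326. *Gzmk*, another granzyme gene, was at 736 against 148 CPM, found in 7 of 9. Defining receptors were low, with *Ncr1*, NKp46, in 1 of 9 cells at 52.6 against 1370 CPM and *Klrb1c*, NK1.1, at 237 against 1444. Their naming as NK cells therefore rests on granzymes and other listed genes more than on these receptors, and *Cd3e* marked 9 of the 11 cycling NK cell-like cells over both libraries.

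In plasma cell-like cells in cycle the chaperone gene *Mzb1* was at 5576 CPM against 2956 in the other plasma cell-like cells of the control, the coactivator gene *Pou2af1* at 1316 against 605 and *H2-Ab1* at 1271 against 555. Of the genes of secreted products, *Jchain* was at 33812 against 56817, *Igha* at 84522 against 121198 and *Ighg2c* at 421 against 38988 CPM. Immunoglobulin UMIs take a large share of each such cell, so the levels of its other genes are relative to that share. Over the cycling control cells of all classes *Ighg2c* gave 1912 UMIs, 3347 CPM, and the top cell held 1099 of them. Most of its UMIs in cycling cells thus lay outside the plasma cell-like class. *Jchain*-rich cycling cells also stood among the B cell-like cells, as given below. The low level of *Ighg2c* therefore describes this class only and not all cycling cells with plasma cell genes.

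The count of this class depended on the limit and on *Mki67*. Of the 97 control plasma cell-like cells 41 (42.3%) held 1 to 4 UMIs of the 8 genes, of which *Mki67* made up 86.2%, and 28 (28.9%) would pass a limit of 3 UMIs but 6 (6.19%) one of 8. Without *Mki67* in the sum 5 remained cycling. Dendritic cell-like cells held 8 and 19 cells without *Mki67*, and endothelial cell-like cells 4 and 13. The plasma cell-like count thus rests largely on *Mki67* at low counts.

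Cycling B cell-like cells of the control, 7 cells, were set against the other B cell-like cells. The deepest of the 7, with 11756, 7982 and 7712 UMIs, held 174, 227 and 144 *Jchain* UMIs. The B cell name thus does not hold for all 7, and these *Jchain*-rich cells weigh most in the summed levels that follow. *Cd22*, an inhibitory receptor gene, was at 154 against 1701 CPM, *Pax5*, the B lineage factor, at 103 against 1459 and *Ighd*, of naive B cells, at 103 against 3503. *Prdm1*, the gene of the plasma cell factor Blimp-1, was at 205 against 12.2 CPM in 3 of 7, and the germinal center gene *Bcl6* had no UMI. The cell with the most UMIs of the 8 genes in the control library, 129 with 69 from *Mki67*, was of this class and held 174 *Jchain* UMIs. The 2 cycling neutrophil-like cells of the control were placed in the immature subgroup by their markers, 1 with 182 *Elane*, 213 *Mpo* and 164 *Prtn3* UMIs. Of the immature subgroup 2 of 9 control and 1 of 5 NASH cells cycled. A control cell of 7016 UMIs and the NASH cell, of 3090, also held 20 and 4 *Kdr* UMIs. Both carried markers of more than 1 lineage, and doublets were not removed.

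Levels of replication and spindle genes varied between the lineages. Replication genes summed to a median of 99.4 and 118 UMIs per 10000 in the cycling T cell-like cells of the control and NASH library, 33.3 and 40.6 in Kupffer, 32.9 and 41.1 in dendritic and 22.6 and 37.4 in endothelial cell-like cells. The list of kinesins, spindle and cytokinesis was summed with its members *Hmmr*, *Kif11* and *Nusap1*, which helped to choose the cells. Its medians were 49.0 and 73.4 in T cell-like, 162 and 135 in endothelial and 22.3 and 54.3 in Kupffer cell-like cells. The limit of 5 UMIs is also a higher level in a shallow cell, so no order of the classes is read from the spindle list. Each list's medians are compared between classes only within the list. Over all cycling cells the medians of the replication list were 40.7 and 43.5, and those of the spindle list 40.8 and 74.1.

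Between the diets, 5625 genes were measured in the cycling cells, of which 598 (10.6%) stood at a log2 ratio of NASH to control of 1 or more and 296 (5.26%) at -1 or less. With the classes that had cycling cells in both libraries weighted by their control share of UMIs, 386 stood at 1 or more. This left out the plasma, monocyte or macrophage and cholangiocyte-like cells, and did not match subgroups within a class. The lowest genes were those of plasma cells and granulocyte precursors. *Jchain* went from 4363 UMIs to 1, *Igha* from 9611 to 9, *Ighg2c* from 1912 and *Ighg2b* from 782 to 0, and *Prtn3* from 277 UMIs in 4 cells, *Mpo* from 248 in 2 and *Elane* from 205 in 3 to 0. *Igkv5-39* rested on 2 control cells.

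The 10 highest genes included several of endothelial cells and a chemokine. *Cxcl2*, which attracts neutrophils, went from 5 to 97 UMIs (8.75 to 275 CPM), 47 of them in 1 NASH cell. *Nos3*, endothelial nitric oxide synthase, went from 2 to 25 UMIs, the adhesion molecule gene *Mcam* from 2 to 21, the caveolae gene *Cavin1* from 1 to 20, the G protein gene *Gng11* from 9 to 81 and the laminin gene *Lamb2* from 3 to 28. With the shared classes weighted as above, the log2 ratio of *Nos3* went from 4.04 to 1.30 and of *Gng11* from 3.79 to 1.25. That of *Mcam* went from 3.80 to 1.27 and of *Cavin1* from 4.47 to 1.92, while *Cxcl2* stood at 5.43. The endothelial subgroups were not matched in this weighting. The larger share of endothelial cells among the cycling NASH cells moved with these genes.

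Within lineages the 8 genes differed unevenly between the libraries. In Kupffer cell-like cells *Cdk1* was at 314 CPM (control) and 693 (NASH), a log2 ratio of 1.14 (0.54 to 1.75), *Mki67* at 530 and 867 and *Nusap1* at 83.7 and 293. In dendritic cell-like cells *Cdk1* was at 295 and 545 CPM, *Mki67* at 1572 and 2022 and *Cenpf* at 404 and 692. *Pclaf* differed little in either class, at log2 ratios of 0.01 and -0.03. In endothelial cell-like cells *Cdk1* had a log2 ratio of 0.51 (-0.25 to 1.47), *Mki67* one of -0.65, *Hmmr* one of -0.35 and *Nusap1* one of -0.31. In T cell-like cells *Mki67* was at -0.05 and *Cdk1*, from 49 and 11 UMIs, at -0.54, and *Ccnb2* in Kupffer cell-like cells was at 0.15. The 8 genes chose the cells in each library, so these values are a description.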

How the data were processed

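NPCs were captured on the BD Rhapsody platform as 1 library per diet. The authors deposited counts, UMIs per gene and cell without normalization, made by BD's whole transcriptome pipeline on GRCm38. The annotation version was not given in the sources used here. Of the genes, 12 carry dates in place of symbols. Positions were taken from GENCODE M21. Cells under 500 UMIs or 200 genes were left out. Cells were classed by 15 marker lists with 19 components in a multinomial mixture (25 seed cells, 15 rounds), and by 6 lineage genes above set levels. Expected UMIs came from cells of the same component and library without UMIs of the 8 genes. Genes with 20 observed or expected UMIs over both libraries were measured, and a gene at or under 3 UMIs is given by its UMIs. No doublet caller was run. The computations were tested on simulated data. The genes named were drawn from the 8 genes, lineage markers, up to 6 highest and 2 lowest members of each list, the 15 highest and 12 lowest genes on no list, and the 10 highest and 10 lowest between diets. Others, within classes, were chosen after their values were seen. Members, lists, marker classes and the levels of the lineage genes were chosen with earlier results of these data known. Python 3.11.15, numpy 2.4.6, scipy 1.17.1, pandas 2.3.3 and matplotlib 3.10.9 were used.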

Additional observations from a re-analysis of the deposited data

Results flagged for a closer look

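*Enah*, which encodes an actin regulator, differed in sign between the libraries. In the control library its log2 ratio of cycling cells to other cells of the same lineage was -1.78, from 1 UMI in the cycling cells, and in the NASH library 1.55, from 23 UMIs. The difference was not tested.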

How the results depend on the processing

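With 1 library per diet no library could be left out. No paired analysis was possible because each diet has 1 library. Of the counts and shares that answer a comparison, 509 values stayed within their counting interval or 1.5 times and 39 moved. The cause of each move was not tested, and no direction between diets is read from them. The cycling share of the control moved to 2.87% at 3 UMIs, 0.992% with cells thinned to 1000 UMIs and 1.35% without *Mki67*, and that of the NASH library to 1.11% thinned and 2.26% at 2 UMIs of the thinned 1000, a setting chosen after seeing the data. *Clec4f* cells of the control moved to 4.91% at 3 UMIs, 0.216% thinned and 1.30% at 2 thinned UMIs, and to 2.86% of the cycling cells when thinned, and those of the NASH library to 0.708% thinned. *Jchain* cells of the control moved to 28.4% at 3 UMIs, 6.42% at 8, 4.81% thinned, 5.77% at 2 thinned UMIs and 5.50% without *Mki67*. *Cd3e* cells made up 42.9% of the cycling control cells when thinned, and *Kdr* cells of the NASH library cycled at 1.504% with 2 thinned UMIs. *Lyz2* shares went to 0 when thinned, in both libraries, and in the NASH library also without *Mki67* or without cells of more than 1 lineage. The share of unmarked cells was 6.62% in NASH cells of at least 1000 UMIs, and 4.38% and 9.09% with lineages from the marker lists.

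Genes lower in cycling cells numbered 590 with lineage ignored, 306 with lineages from the 6 genes (chosen after seeing the data), 62 at 50 UMIs and 287 at 5 UMIs, while genes higher ranged from 260 to 452. No cycle gene was lower with lineage ignored or against the deep other cells (69 and 50 cycling cells used). Against the deep other cells the median of all genes was 0.23 (control) and 0.03 (NASH). Between diets, genes higher in NASH numbered 265 at 50 UMIs, 1156 at 5 UMIs and 386 with the shared classes weighted as in the control. Genes lower numbered 135 and 597 at these 2 limits. Among values of single genes and lists 2884 stayed, 473 moved and 1 turned its sign, *Il7r* in the NASH library, at 0.62 against deep other cells. Intervals and bounds cover counting error only, and cells of a pool are not replicates.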
